A study of Mus musculus with 6 samples.

Results

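Genes of the early secretory pathway were examined in fibroblasts of the enthesis, the attachment of tendon or ligament to bone, from diseased and un-diseased SKG mice. The 43 genes were chosen by name and role, with earlier results of these data known. They encode the translocon, the translocon-associated protein (TRAP) complex, signal peptidase, COPII and COPI vesicle coats, cargo receptors and the transcription factors Creb3l1 and Creb3l2. All 43 were among the 17419 genes of the count table, and all 43 were among the 13264 genes with enough counts to be tested. RNA was sequenced in bulk from 3 diseased samples and 3 un-diseased samples, numbered 1 to 3 in each group. Both groups are SKG mice, a strain with a mutation of Zap70 that is prone to autoimmune arthritis, and the labels give no age, sex, inducing agent or time. Whether the samples of a group were separate animals or cultures is not stated, so the p-values rest on a spread that may be technical.

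Proteins meant for secretion, such as collagens, enter the endoplasmic reticulum (ER) through the Sec61 pore while they are being made, and signal peptidase removes their leader peptide. COPII-coated vesicles carry the folded cargo from the ER toward the Golgi, and COPI-coated vesicles return escaped ER proteins and receptors. Fibroblasts of tendon and its attachment secrete large amounts of collagen, and procollagen is a bulky cargo that needs help to leave the ER.

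Total counts were between 16720605 and 18290870 per sample. The 43 genes took 0.700%, 0.695% and 0.701% of the counts in diseased replicates 1, 2 and 3, and 0.632%, 0.594% and 0.570% in un-diseased replicates 1, 2 and 3. The lowest count of any of these genes in any sample was 351, for Sec61b, with an exact 95% Poisson interval of 315 to 390 that covers counting error only. Levels below are in CPM, that is, counts scaled to a common library total after TMM adjustment, and a log2 fold change is diseased over un-diseased. Fibroblast markers were abundant in every sample: the 8 listed, Col1a1 and Dcn among them, summed to 81505 to 114949 CPM in diseased and 60549 to 86778 CPM in un-diseased samples. The sum does not speak for each gene: 6 of the 8 had a positive log2 fold change, while Dcn had -0.53 and Pdgfra -0.17. For Dcn every diseased sample was below every un-diseased one.

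By edgeR's quasi-likelihood test 2 of the 43 genes passed an adjusted p of 0.05, both higher in diseased samples, and 41 did not pass. The background was 1.61% of tested genes called higher and 2.13% called lower, and the 2 genes are 4.65% of the 43. They were Lman1, a lectin receptor that carries glycoproteins out of the ER, and Copz2, a zeta subunit of the COPI coat. Fold changes were small and mostly of 1 sign: 36 of the 43 were positive, against 51.8% of tested genes, and the median was 0.17 against 0.018 over all tested genes. All 3 diseased samples were above all 3 un-diseased samples for 18 genes, or 41.9%, against a background of 16.5%. Only Sec24b had all diseased samples below all un-diseased ones, 2.33% against a background of 15.4%. At an unadjusted p below 0.05 in the same edgeR fit, 16 of the 43 were higher, or 37.2%, against a background of 13.4%. In bulk RNA, more cells of a type and more RNA per cell cannot be told apart.

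Same-numbered samples deviated together from their group means, and a fit with the replicate number as a block called more genes. With this replicate block 9 of the 43 were higher, or 20.9% against a background of 10.5%, and 1 was lower, or 2.33% against a background of 13.3%. The 9 were Lman1, Copz2, Tmed9, Kdelr1, Sec61b, Copb2, Ssr2, Sec24d and Kdelr3, and the gene that was lower was Sec24b. The backgrounds with and without the block apply also to the counts by role below. The number of unblocked calls, and its background, changed with the samples kept. The count was 1 without diseased replicate 1 (0.29%), 0 without diseased replicate 2 (0.267%) or 3 (0.0149%). Among the fits that dropped an un-diseased sample, it was 3 for replicate 1 (2.63%) and 0 for replicate 2 (0.0223%) or 3 (0.103%), backgrounds in parentheses. With the block it was 9 without pair 1 (7.62%), 3 without pair 2 (6.06%) and 1 without pair 3 (3.18%). Of the 9 genes called with the block, Lman1 passed in all 3 of these fits, and Copz2 and Sec61b in 2. Ssr2, Sec24d, Tmed9, Kdelr1 and Kdelr3 passed in 1, and Copb2 in 0.

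**Figure D1:**
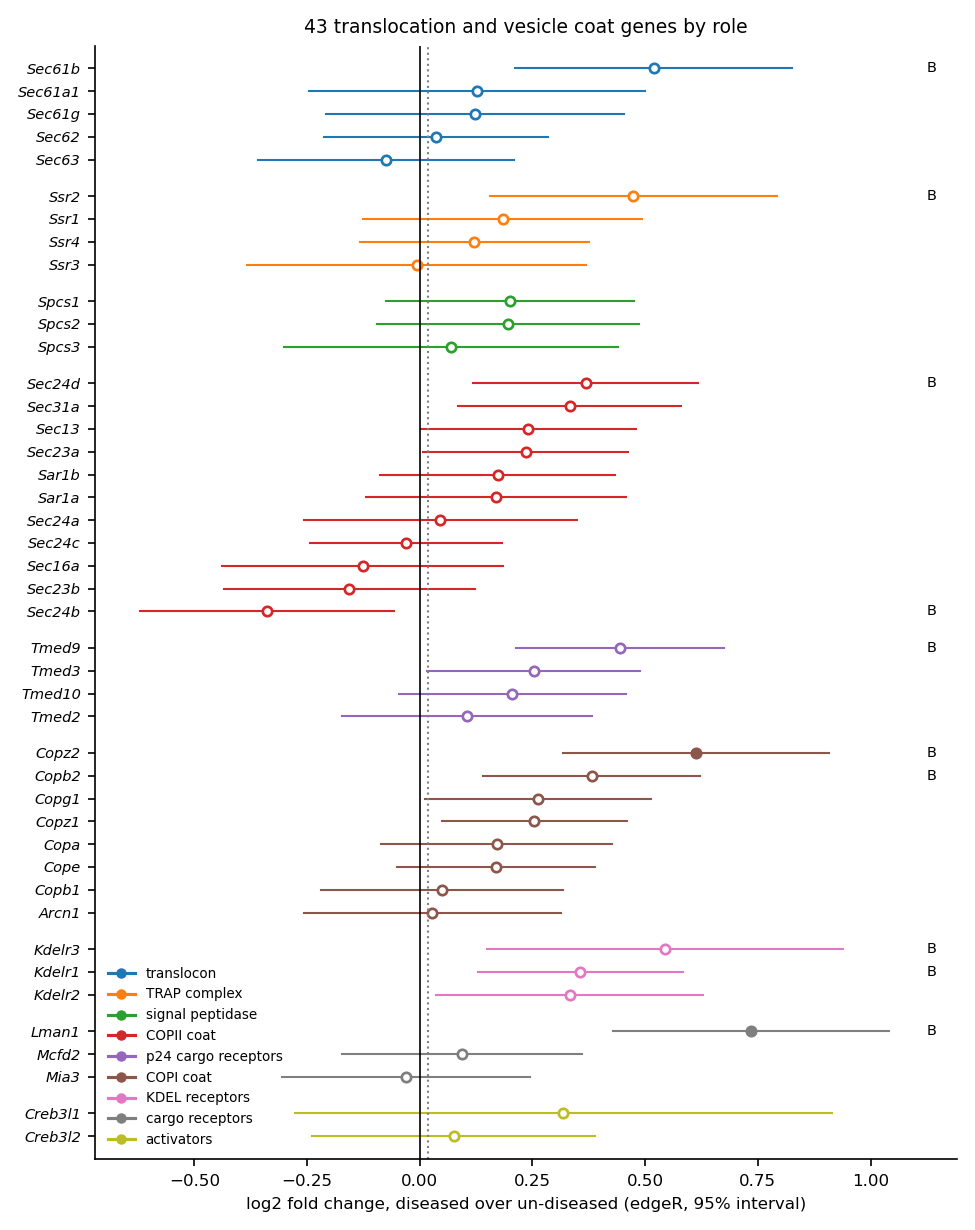
Log2 fold change (diseased over un-diseased, x axis) of each of the 43 genes with its 95% interval from edgeR, grouped and coloured by role; filled circles passed an adjusted p of 0.05, B marks genes called with the replicate block, and the dotted line is the median of all tested genes. Lman1 and Copz2 are the filled points at 0.73 and 0.61, and Sec24b is the lowest point at -0.34.

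Markers of some other cells were also higher in diseased samples. The 10 macrophage markers had fold changes above 0, their median being 1.20. By edgeR 0 of the 10 passed without the block and 10 with it, and their summed level was 152 to 421 CPM in diseased and 37.0 to 203 CPM in un-diseased samples. Markers of plasma cells, which are rich in secretory machinery, were low: the 8 listed for plasma and B cells summed to 3.47 to 9.60 CPM in diseased and 2.38 to 4.07 CPM in un-diseased samples, and 1 of the 8, Jchain, had enough counts to be tested. The 5 neutrophil markers summed to 28.4 to 137 CPM in diseased and 3.90 to 118 CPM in un-diseased samples, and 3 of 5 were higher with the block. The 4 chondrocyte markers summed to 72.5 to 256 CPM in diseased and 37.0 to 96.4 CPM in un-diseased samples, with 0 of 4 called. Of the 4 tendon markers, Fmod passed as higher without the block and 3 passed with it, and their sum was 1022 to 1562 CPM in diseased and 599 to 729.9 CPM in un-diseased samples. Other lists had smaller or negative medians, and several were mixed within. The median change of tested markers was 0.17 for T cells, 0.12 for endothelial cells and 0.012 for pericytes and smooth muscle. It was -0.23 for Schwann cells (2 genes tested), -0.090 for osteoblasts and -0.60 for skeletal muscle (1 gene tested). Changes were above 0 for 3 of 4 tested T cell markers, and for 2 of 4 in the endothelial, pericyte and osteoblast lists. In T cells Cd3e had -1.22 and Cd3g 0.57. Among endothelial markers Cdh5 had 1.13 and Tek -0.75, and among osteoblast markers Ibsp had 1.29 and Sp7 -0.58. From these lists the blocked edgeR fit called only Cd3e of T cells and Tek of endothelial cells, both lower. The part of other cells' RNA in the results below was not tested.

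The promoters were searched for short words known to bind factors that control secretory genes. As background, TGACGTGG is the core of an element bound by the ER stress factors ATF6 and XBP1 and by relatives of CREB3. RefSeq promoter windows of 300 bases (GRCm38.p6, 250 before to 50 after the start) were found for 35 of the 43 genes, 37 windows in all, and none was found for Sec61a1, Ssr2, Spcs3, Tmed2, Arcn1, Kdelr2, Lman1 and Creb3l1. On either strand TGACGTGG occurred in 5 of the 37 windows, or 13.5%, against 0.676% of all 32851 windows and 0.855% of the 13562 windows of tested genes. The palindrome TGACGTCA, to which many CREB factors bind, occurred in 1 of 37 windows, that of Cope, or 2.70% against 1.79% of all windows. The ER stress elements ERSE and ERSE-II in their full form occurred in 0 of 37 windows, against 0.119% and 0.0365% of all windows. TGACGTGG and TGACGTCA share their first letters, and no window of the 37 held more than 1 of the 4 motifs. These are matches of letters, not sites shown to be bound.

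The 5 windows with TGACGTGG belong to Sec24d and Sec23a of the COPII coat, Copb1 and Copb2 of the COPI coat, and the KDEL receptor gene Kdelr3, and are shown because these genes share the word. Each line gives 180 bases 5′ to 3′ on the strand of the gene, from 150 before the start to 29 after it, with the word in capitals (CCACGTCA where it lies on the opposite strand).
Sec24d: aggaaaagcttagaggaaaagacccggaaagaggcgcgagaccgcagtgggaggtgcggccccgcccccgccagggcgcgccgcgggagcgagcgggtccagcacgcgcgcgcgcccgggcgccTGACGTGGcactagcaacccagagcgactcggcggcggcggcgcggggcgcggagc
Sec23a: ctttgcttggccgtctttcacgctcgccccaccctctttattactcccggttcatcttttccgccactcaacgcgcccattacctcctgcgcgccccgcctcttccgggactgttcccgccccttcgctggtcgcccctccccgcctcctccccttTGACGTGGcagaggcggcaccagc
Copb1: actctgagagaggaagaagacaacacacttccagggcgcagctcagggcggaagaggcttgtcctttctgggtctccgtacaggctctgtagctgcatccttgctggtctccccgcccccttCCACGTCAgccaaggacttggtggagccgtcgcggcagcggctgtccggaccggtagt
Copb2: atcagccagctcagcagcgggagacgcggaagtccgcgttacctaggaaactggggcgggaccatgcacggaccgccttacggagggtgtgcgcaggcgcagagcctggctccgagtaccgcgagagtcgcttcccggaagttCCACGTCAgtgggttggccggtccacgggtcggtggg
Kdelr3: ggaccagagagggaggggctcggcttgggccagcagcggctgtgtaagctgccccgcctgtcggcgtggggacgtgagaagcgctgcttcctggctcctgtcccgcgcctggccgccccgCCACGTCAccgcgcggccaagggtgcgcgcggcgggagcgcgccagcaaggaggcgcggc
The stretches are chr3:123267346-123267525 (+ strand) for Sec24d, chr12:59011988-59012167 (- strand) for Sec23a, chr7:114254651-114254830 (- strand) for Copb1, chr9:98563581-98563760 (+ strand) for Copb2 and chr15:79516258-79516437 (+ strand) for Kdelr3. The start used for Sec24d lies inside the gene, whose RefSeq position is chr3:123264801-123365641. With the start base as 0, the word begins at -26 in Sec24d, at 6 in Sec23a, at -28 in Copb1, at -7 in Copb2 and at -30 in Kdelr3. All 5 genes had a positive fold change, as did 83.7% of the 43 genes and 51.8% of tested genes. In 4 of the 5 the diseased samples were all above the un-diseased ones, Copb1 being the exception. Among the 30 genes with a window but without the word, this held for 11, or 36.7% (background 16.5%). Genes with and without the word were not compared by a test.

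Among the translocon genes 0 of 5 passed without the block, and 1, Sec61b, was higher with it. Sec61b, a small subunit of the pore at chr4:47474661-47483233 of GRCm38.p6, had 31.8, 30.8 and 40.0 CPM in the diseased samples, numbered 1 to 3, against 25.3, 24.6 and 21.8 CPM in the un-diseased ones. Every diseased sample was above every un-diseased one, and diseased replicate 3 was the highest. The edgeR log2 fold change of Sec61b was 0.52 (SE 0.13), at an adjusted p of 0.0711 without the replicate block and 0.0278 with it. Sec61a1, which forms the pore itself, had 259, 386 and 315 CPM across diseased samples 1 to 3 and 282, 305 and 293 CPM across un-diseased samples 1 to 3. Here the groups overlapped, since diseased replicate 1 was the lowest of the 6 samples and diseased replicate 2 the highest. The change of Sec61a1 was 0.13, with a 95% interval of -0.25 to 0.50 that leaves room for a change in either direction. Sec61g, the other small subunit, had levels of 25.9, 22.2 and 31.8 CPM in diseased samples 1 to 3, against 25.2, 23.7 and 24.5 CPM in un-diseased samples 1 to 3, and the groups overlapped. Sec62 and Sec63, which assist in translocation after synthesis and recruit the chaperone BiP, had changes of 0.036 and -0.075, with intervals of -0.21 to 0.29 and -0.36 to 0.21.

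The TRAP complex sits beside the pore and helps some proteins to enter. Of its 4 genes 0 passed without the block, and Ssr2 was higher with it. Ssr2 had 83.5, 111 and 105 CPM in the diseased samples, numbered 1 to 3, against 72.5, 64.1 and 78.4 CPM in the un-diseased ones. The groups did not overlap, and diseased replicate 1 was the closest to the un-diseased samples. For Ssr2 edgeR gave a log2 fold change of 0.47 (SE 0.14), adjusted p = 0.0919, and adjusted p = 0.0281 with the block. Ssr1 had 252, 318 and 262 CPM across diseased samples 1 to 3 and 224, 253 and 254 CPM across un-diseased samples 1 to 3, and the groups overlapped. Ssr1, Ssr4 and Ssr3 had changes of 0.18, 0.12 and -0.0065. Signal peptidase is represented by its accessory subunits, and 0 of 3 passed with or without the block. Spcs1 had levels of 62.0, 52.1 and 58.8 CPM in diseased samples 1 to 3, against 51.1, 44.3 and 55.2 CPM in un-diseased samples 1 to 3. Spcs2 had 66.6, 90.6 and 78.6 CPM in the diseased samples, numbered 1 to 3, against 70.9, 68.2 and 66.7 CPM in the un-diseased ones. Both genes had overlapping groups, with changes of 0.20 and 0.20, and Spcs3 had 0.069. Spcs1 was the only gene of the 43 with counts that were not whole, so its level rests in part on reads that were divided between genes.

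**Figure D2:**
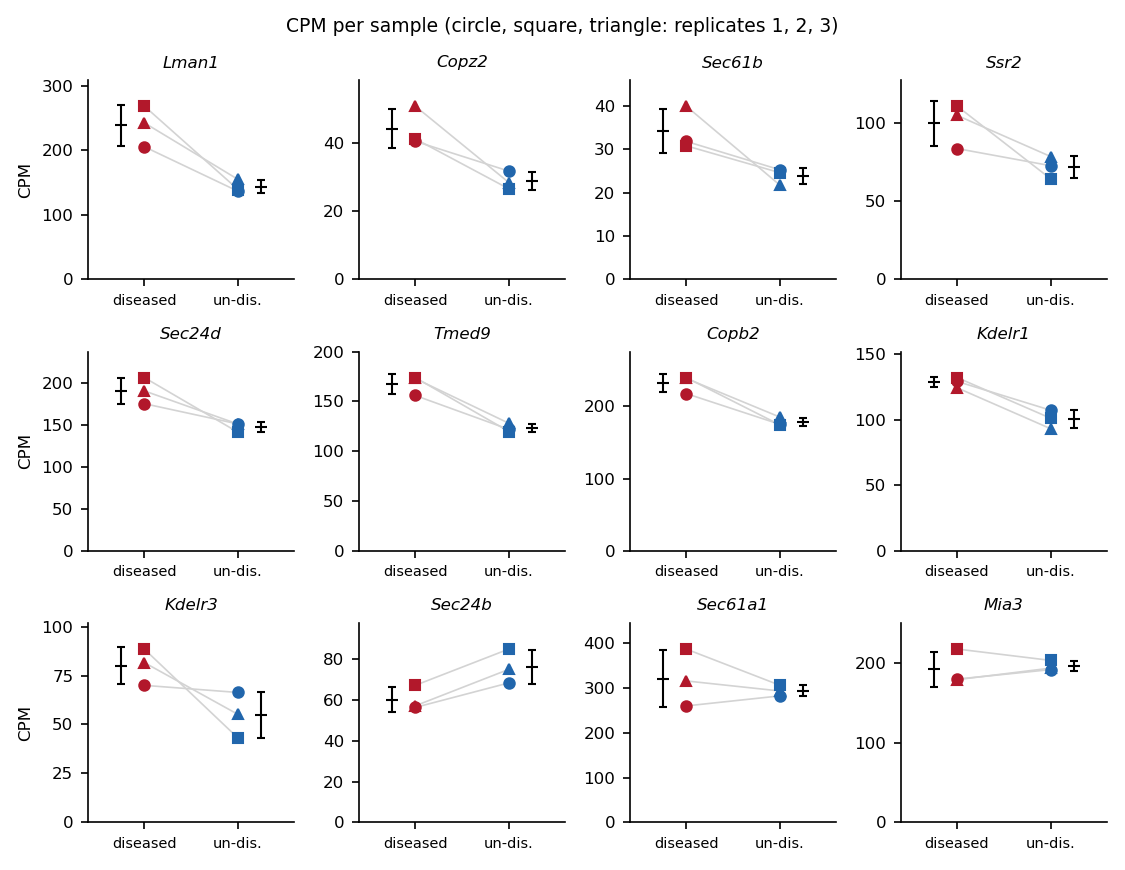
CPM (y axis, from 0) in each of the 6 samples for 12 of the genes, diseased samples in red on the left and un-diseased samples in blue on the right; grey lines join same-numbered samples, and the bars beside the points are the mean and SD. The first 9 panels are the genes higher with the replicate block, Sec24b is lower in all 3 pairs, and in Sec61a1 and Mia3 the groups overlap.

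Of the 11 COPII coat genes 0 passed without the block; with it Sec24d was higher and Sec24b lower. Sec24d, a cargo-selecting subunit whose loss causes a brittle bone syndrome in humans, had 175, 206 and 191 CPM across diseased samples 1 to 3 and 151, 141 and 151 CPM across un-diseased samples 1 to 3. All diseased samples lay above all un-diseased ones, and the log2 fold change was 0.37 (SE 0.11). The edgeR adjusted p of Sec24d was 0.0937, or 0.0387 with the block. Its paralog Sec24b had levels of 56.2, 67.0 and 57.0 CPM in diseased samples 1 to 3, against 68.2, 84.8 and 74.9 CPM in un-diseased samples 1 to 3, the diseased samples all lower. By edgeR the change of Sec24b was -0.34 (SE 0.12), at adjusted p = 0.132 without and 0.0284 with the block. The blocked call was lost with upper-quartile factors, in DESeq2, and without pair 2 or pair 3. Sec24a and Sec24c had changes of 0.046 and -0.031, with intervals of -0.26 to 0.35 and -0.24 to 0.18.

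Sec23a pairs with Sec24 in the inner coat and, when defective in humans, impairs skull and face formation. It had 119, 137 and 134 CPM in the diseased samples, numbered 1 to 3, against 113, 110.1 and 108 CPM in the un-diseased ones, with no overlap. Its change of 0.23 (SE 0.098) did not pass in edgeR without the block (adjusted p = 0.171) or with it (adjusted p = 0.111). Its paralog Sec23b had a change of -0.16, with an interval of -0.43 to 0.12. The outer coat genes Sec31a and Sec13 had groups that did not overlap, with changes of 0.33 and 0.24. Sec31a missed the threshold narrowly with the block (adjusted p = 0.0503 by edgeR) and had 305 ± 14.9 CPM in diseased and 242 ± 5.57 CPM in un-diseased samples (SD, n = 3 each). DESeq2 without the block called Sec31a higher (adjusted p = 0.0228). Sar1a and Sar1b, the GTPases that start coat assembly, had changes of 0.17 and 0.17, and Sec16a, which marks the ER exit sites, had -0.13. Their groups overlapped.

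The 4 genes of the p24 family among the 43, Tmed2, Tmed3, Tmed9 and Tmed10, encode membrane proteins that link cargo to the coats. They had fold changes above 0, and 0 of 4 passed without the block, 1 with it. Their median was 0.23. Tmed9 had 156, 174 and 173 CPM across diseased samples 1 to 3 and 122, 119.8 and 128 CPM across un-diseased samples 1 to 3. The lowest diseased sample exceeded the highest un-diseased one, and the change was 0.44 (SE 0.099). In edgeR its adjusted p was 0.0549, or 0.014 with the block, and DESeq2 called it higher without the block (adjusted p = 0.00238). Tmed3 had levels of 148, 154 and 154 CPM in diseased samples 1 to 3, against 138, 118 and 127 CPM in un-diseased samples 1 to 3, again without overlap, and a change of 0.25 (SE 0.10). Tmed10 and Tmed2 had changes of 0.21 and 0.11, and did not pass. Of the family's other 4 tested genes 0 passed with or without the block, and all had overlapping groups: Tmed1 and Tmed7 had changes of 0.32 and 0.084, and Tmed4 and Tmed5 of -0.15 and -0.17.

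The 8 COPI coat genes had fold changes above 0, with a median of 0.21. For 5 of them every diseased sample was above every un-diseased one (background 16.5%). Of the 8, 1 passed as higher without the block (background 1.61%) and 2 with it (background 10.5%). Copz2 lies at chr11:96849876-96861203 and had 40.5, 41.2 and 50.8 CPM in the diseased samples, numbered 1 to 3, against 31.7, 26.5 and 28.4 CPM in the un-diseased ones. Diseased replicate 3 was the highest sample, and the groups did not overlap. Copz2 had an edgeR log2 fold change of 0.61 (SE 0.13), adjusted p = 0.0449 (0.00976 with the block). Leaving out single samples gave changes of 0.50 to 0.68 and adjusted p of 0.0408 to 0.172 by edgeR, of which 1 of 6 passed, the fit without un-diseased replicate 1. With the block, 2 of 3 fits without a pair passed. Copb2, the beta-prime subunit that binds retrieval signals, had 218, 239.9 and 239 CPM across diseased samples 1 to 3 and 175, 174 and 185 CPM across un-diseased samples 1 to 3, with no overlap. Its change was 0.38 (SE 0.10) (edgeR adjusted p = 0.0798, and 0.0279 with the block). In the 3 blocked fits without a pair Copb2 did not pass (edgeR adjusted p of 0.0537 to 0.13). The gamma, zeta and alpha subunit genes Copg1, Copz1 and Copa also had groups apart, with changes of 0.26, 0.25 and 0.17. The groups overlapped for Cope (epsilon), Copb1 (beta) and Arcn1 (delta), with changes of 0.17, 0.049 and 0.028.

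The KDEL receptors bind escaped ER proteins in the Golgi and return them in COPI vesicles. Of the 3 genes 0 passed without the block and 2, Kdelr1 and Kdelr3, with it (background 10.5%). In all 3 receptor genes every diseased sample was above every un-diseased one (background 16.5%). The median change of 0.36 was the highest of the 9 role groups, which hold 2 to 11 genes each. Kdelr1 had levels of 129, 132 and 124 CPM in diseased samples 1 to 3, against 107, 101 and 93.1 CPM in un-diseased samples 1 to 3. The change was 0.36 (SE 0.098), and edgeR passed it with the block (adjusted p = 0.0257) but not without (adjusted p = 0.0826), where DESeq2 did (adjusted p = 0.034). Kdelr3, whose promoter is among those printed above, had 70.0, 88.5 and 81.6 CPM in the diseased samples, numbered 1 to 3, against 66.3, 43.1 and 55.2 CPM in the un-diseased ones. Diseased replicate 1 was only just above un-diseased replicate 1, while samples 2 and 3 of the groups lay further apart. The change was 0.54 (SE 0.17), with edgeR adjusted p = 0.108, and 0.0432 in the blocked fit. DESeq2 without the block did not call Kdelr3 (adjusted p = 0.0556). Kdelr2 had 154 ± 22.5 CPM in diseased and 122 ± 4.28 CPM in un-diseased samples (SD, n = 3 each), a change of 0.33 that did not pass.

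Lman1 had the largest fold change of the 43 genes, and among the 3 cargo receptor genes of this group it alone passed, with and without the block. It lies at chr18:65980739-66002635 and had 206, 269 and 243 CPM across diseased samples 1 to 3 and 137, 139 and 155 CPM across un-diseased samples 1 to 3. Every diseased sample was above every un-diseased sample. The log2 fold change of 0.73 (SE 0.13) is a 1.66-fold difference, and edgeR gave it an adjusted p of 0.0344, or 0.00457 with the block. Leaving out single samples gave changes of 0.64 to 0.83 and adjusted p of 0.0413 to 0.149 by edgeR, of which 2 of 6 passed (those leaving out sample 1 of either group), while with the block all 3 fits without a pair passed. Mcfd2 encodes the soluble partner of Lman1, and in humans the receptor formed by both carries clotting factors. It had levels of 69.3, 89.0 and 75.8 CPM in diseased samples 1 to 3, against 70.7, 72.4 and 76.0 CPM in un-diseased samples 1 to 3, and the groups overlapped. The change of Mcfd2 was 0.094, and its 95% interval of -0.17 to 0.36 lies below that of Lman1, 0.43 to 1.04; the difference between the partners was not tested.

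Mia3 encodes TANGO1, the ER exit site receptor that loads procollagen, and had 179.8, 218 and 179 CPM in the diseased samples, numbered 1 to 3, against 192, 203 and 194 CPM in the un-diseased ones. Diseased replicate 2 was the highest sample and diseased replicates 1 and 3 the lowest. The change was -0.030, with a 95% interval of -0.30 to 0.24. Of the 2 activator genes 0 passed with or without the block. Creb3l1 (OASIS) is a membrane-bound transcription factor that in mouse bone-forming cells drives type I collagen. It had 42.6, 86.8 and 78.6 CPM across diseased samples 1 to 3 and 46.4, 59.0 and 61.2 CPM across un-diseased samples 1 to 3. The diseased samples were spread widely, with replicate 1 the lowest of all 6, and the change of 0.32 (SE 0.26) did not pass in edgeR (adjusted p = 0.43, and 0.175 with the block). In the 3 blocked fits without a pair the change of Creb3l1 ran from 0.12 to 0.44, and 1 of 3 passed (edgeR adjusted p = 0.0288). Creb3l2, its relative, which in mouse cartilage cells activates Sec23a, had levels of 174, 211 and 170.3 CPM in diseased samples 1 to 3, against 155, 191 and 181 CPM in un-diseased samples 1 to 3. The groups overlapped, and the change was 0.075, with an interval of -0.24 to 0.39.

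The difference varied between same-numbered pairs. The median difference over the 43 genes was 0.079 in pair 1, 0.25 in pair 2 and 0.22 in pair 3, against -0.0040, 0.015 and 0.017 over all tested genes. Higher values in the diseased sample were seen for 29 of the 43 genes in pair 1, 40 in pair 2 and 33 in pair 3. In all 3 pairs 24 genes were higher, or 55.8% against a background of 30.7%. Only Sec24b was lower in all 3, and 18 genes were mixed. Lman1 differed by 0.59, 0.95 and 0.65 in pairs 1, 2 and 3, and Copz2 by 0.35, 0.63 and 0.84. Kdelr3 varied most between pairs among the receptors, at 0.077, 1.04 and 0.56, and Sec24b differed by -0.28, -0.34 and -0.39. Diseased replicate 1 was low within its group, with a median deviation of these genes from the group mean of -0.12, against 0.098 and 0.031 for diseased replicates 2 and 3. The summed macrophage markers were 285 CPM in the diseased and 93.7 CPM in the un-diseased sample of pair 1, 421 CPM in the diseased and 203 CPM in the un-diseased sample of pair 2, and 152 CPM in the diseased and 37.0 CPM in the un-diseased sample of pair 3.

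**Figure D3:**
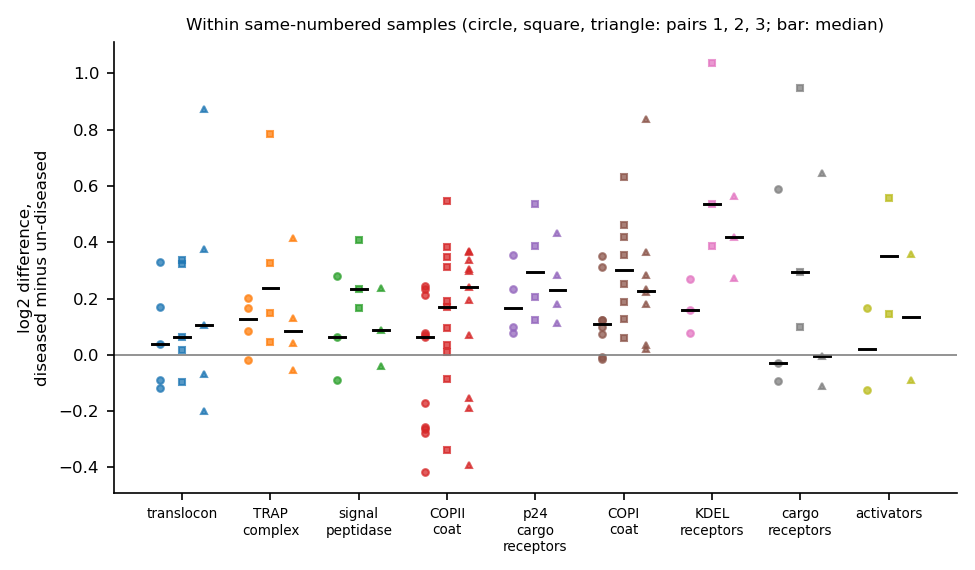
Log2 difference between the diseased and the un-diseased sample of the same number (y axis) for each gene, by role group; circles, squares and triangles are pairs 1, 2 and 3 and black bars are group medians. The 4 p24 genes plotted and the 3 KDEL receptor genes lie above 0 in all 3 pairs, and the COPII genes spread on both sides of 0.

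Several of these coat subunits, GTPases, receptors and activators are encoded by pairs of paralogs. The log2 CPM ratio (prior count 2) of each of 8 paralog pairs was compared between groups by a two-sided exact permutation test, whose smallest p with 3 against 3 samples is 0.1, so no pair could pass 0.05. For Sec24d over Sec24c the log2 ratio was 1.13, 1.31 and 1.12 in diseased samples 1 to 3, against 0.75, 0.77 and 0.86 in un-diseased samples 1 to 3. For Sec23a over Sec23b it was 1.77, 1.67 and 1.66 in diseased samples 1 to 3, against 1.28, 1.46 and 1.21 in un-diseased samples 1 to 3. Both ratios were higher in every diseased sample than in any un-diseased one, by 0.40 and 0.39 on average. The ratio of Copz2 to Copz1 was -0.73, -0.85 and -0.49 in diseased samples 1 to 3, against -0.96, -1.12 and -1.05 in un-diseased samples 1 to 3. That of Sec24a to Sec24b was 0.12, 0.31 and 0.50 in diseased samples 1 to 3, against 0.11, -0.20 and -0.090 in un-diseased samples 1 to 3. These too did not overlap, with differences of 0.35 and 0.37, and each of the 4 pairs reached the smallest possible exact permutation p of 0.1 (adjusted p = 0.2 over 8 pairs). That test ignored the sample numbers. A sign-flip test on differences within same-numbered samples gave an exact p of 0.25 for each of these 4 ratios, the smallest it can give. The ratios of Sar1a to Sar1b, Kdelr2 to Kdelr1, Kdelr3 to Kdelr1 and Creb3l1 to Creb3l2 overlapped, with differences of -0.0064, -0.035, 0.20 and 0.19.

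**Figure D4:**
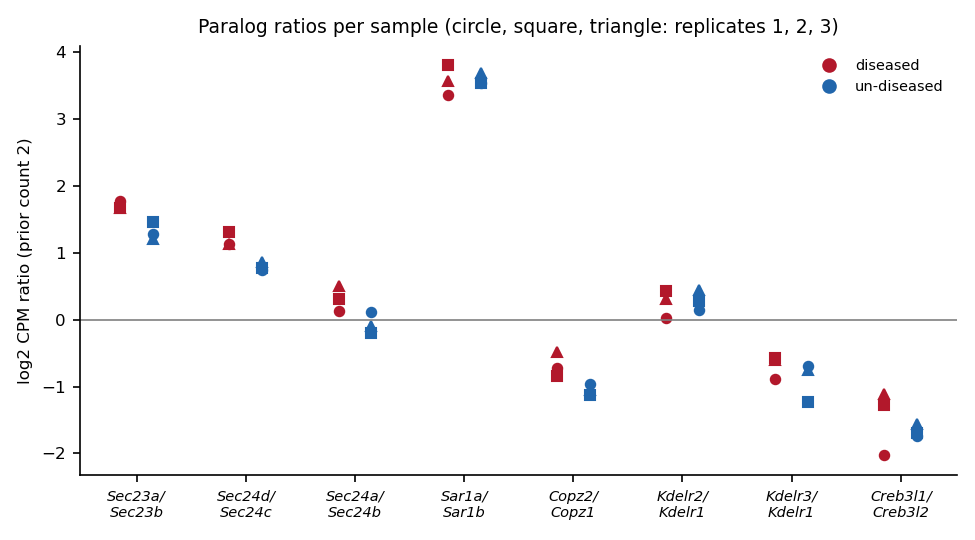
Log2 CPM ratio of 8 paralog pairs (y axis, prior count 2) in each sample, diseased in red on the left and un-diseased in blue on the right of each pair. The groups do not overlap for Sec23a/Sec23b, Sec24d/Sec24c, Sec24a/Sec24b and Copz2/Copz1, and overlap for the other 4 pairs.

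Levels can be compared between genes only per length, here as CPM per kilobase of merged exons (GENCODE M21, mean ± SD, n = 3 each). The p24 genes Tmed10 and Tmed2 had the highest such levels in both groups. Tmed10 had 177 ± 6.56 in diseased and 153 ± 8.57 in un-diseased samples, and Tmed2 had 171 ± 12.7 in diseased and 159 ± 9.21 in un-diseased samples. Within samples Tmed2 was above Tmed10 in every un-diseased sample, and the diseased samples were mixed. Sec24a was the lowest in both groups, with 11.2 ± 1.78 in diseased and 10.8 ± 0.294 in un-diseased samples, and in diseased samples it lay within the spread of Sec24b, 11.7 ± 1.17 in diseased and 14.8 ± 1.62 in un-diseased samples. Among the Sec24 genes Sec24d was the most abundant, at 47.7 ± 3.89 in diseased and 36.9 ± 1.41 in un-diseased samples. Sec24c followed with 18.4 ± 0.839 in diseased and 18.8 ± 0.899 in un-diseased samples. Copz2 had 47.5 ± 6.20 in diseased and 31.1 ± 2.83 in un-diseased samples, and Copz1 had 29.0 ± 1.42 in diseased and 24.3 ± 0.811 in un-diseased samples. The level of Sar1a, 124 ± 12.5 in diseased and 111 ± 5.54 in un-diseased samples, was several times that of Sar1b, 22.5 ± 1.76 in diseased and 20.0 ± 1.68 in un-diseased samples. Creb3l1 had 26.6 ± 9.04 in diseased and 21.3 ± 3.06 in un-diseased samples. Creb3l2 had 26.2 ± 3.19 in diseased and 24.8 ± 2.60 in un-diseased samples. Within samples it was above Creb3l1 in every un-diseased sample, and the diseased samples were mixed. Sec61a1 had 101 ± 20.0 in diseased and 92.5 ± 3.75 in un-diseased samples and Sec61b 60.7 ± 8.90 in diseased and 42.3 ± 3.32 in un-diseased samples. Merged exons count alternative ends, which lowers the level of a gene whose long forms are little used.

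Of 86 further genes of the same pathway, 85 were in the table and 84 were tested, and 2 passed as higher and 0 as lower by edgeR (2.38% against the background of 1.61% higher). With the block 10 were higher, or 11.9%, which is near the background of 10.5%, and 2 were lower, or 2.38% against 13.3%. The median change of the 84 was 0.11. Ostc, a subunit of the oligosaccharyltransferase that adds sugars to entering proteins, had 79.3, 92.0 and 92.6 CPM in the diseased samples, numbered 1 to 3, against 54.7, 50.7 and 53.2 CPM in the un-diseased ones. Its change was 0.73 (SE 0.10) (edgeR adjusted p = 0.0254). Tmco1, an ER membrane protein of the translocation site, had 41.8, 42.8 and 43.8 CPM across diseased samples 1 to 3 and 32.0, 30.6 and 28.8 CPM across un-diseased samples 1 to 3. In Tmco1 the change was 0.49 (SE 0.090) (edgeR adjusted p = 0.0357), and neither gene's groups overlapped. The 8 other genes higher with the block were Stt3a and Magt1 of the oligosaccharyltransferase, Arf5 and Arfgap1 of COPI vesicle budding, the lectin receptor gene Lman2l, and the tethering and fusion genes Sec22b, Bet1 and Gorasp1. The 2 lower ones were Sec31b, a coat paralog at 1.06 to 1.32 CPM in diseased and 1.36 to 3.28 CPM in un-diseased samples, and Ern1, the stress sensor IRE1, with levels of 25.1, 38.7 and 27.5 CPM in diseased samples 1 to 3, against 40.9, 48.8 and 44.2 CPM in un-diseased samples 1 to 3 and a change of -0.55 (SE 0.17). These 10 genes, which edgeR did not call without the block, were named after their values were seen. Over the 84, the diseased samples were all above the un-diseased ones for 26, or 31.0% against the background of 16.5%, and all below for 5, or 5.95% against 15.4%.

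In the authors' deposited table, 8 of the 43 genes had a q-value below 0.05, or 18.6%, against 3.30% of all genes called higher and 4.52% called lower there, and all 8 were higher in diseased. These backgrounds are over all 17419 genes, among them genes with too few counts to be tested in the main fit here. The share among the tested genes alone was not counted. Ratios in the authors' deposited table have the un-diseased group on top, so a negative log2 ratio is a higher level in diseased samples. For Lman1 the authors' deposited table has -0.72 with a q-value of 7.52e-05, and for Tmed9 -0.43 with a q-value of 0.00335. Of the 8 genes in the authors' deposited table, 7 were also called with the replicate block here, and Sec31a was the other.

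Other settings gave other counts of the 43 genes called higher, each read against its own background. Upper-quartile factors called 6 (background 3.14%) and moved the median of all tested genes to 0.10. DESeq2 called 9 (4.79%) without and 7 (6.08%) with the block, and the block with upper-quartile factors 17 (15.6%). RLE factors (1.56%), no filter beyond 1 count (1.48%), a filter of 1 CPM in 3 samples (1.73%) and limma-voom (1.62%) each called 2. At an adjusted p of 0.01, 0 were called (0.0151% of tested genes in each direction).

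The blocked fit called 1 of the 43 genes lower, Sec24b, and so did the blocked fit without pair 1 (background 11.7%), and 0 were called lower in the other settings named here. The backgrounds of lower calls were 2.18% with RLE factors, 2.17% with upper-quartile factors, 2.09% and 2.27% with the other filters, 2.16% with limma-voom, 6.65% with DESeq2, 10.6% with DESeq2 and the block, and 10.4% with the block and upper-quartile factors. They were 0.343%, 0.645% and 0.0223% without diseased replicates 1, 2 and 3, 5.36%, 0.052% and 0.17% when an un-diseased replicate was left out in the same order, and 9.55% and 4.35% with the block without pairs 2 and 3.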

How the data were processed

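RNA abundance was measured by sequencing in 3 diseased and 3 un-diseased samples, grouped by the treatment label. The deposited table holds estimated counts per gene and sample, of which 9.61% are not whole, and they were rounded before any test. HISAT2 2.0.4, RSEM 1.3.1 and DESeq2 1.4.5 with the mouse build GRCm38 are listed in the submitters' processing notes, with no role or order. Per the file headers the authors also deposited, for each gene, a log2 ratio with the un-diseased group on top, a p-value and a q-value. Gene positions are from RefSeq's GRCm38.p6 table, 1-based, which matched 17372 of the 17419 gene numbers.

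Genes were filtered with filterByExpr of edgeR 4.0.16 (R 4.3.3; least count 10), scaled by TMM and compared by the quasi-likelihood test, with Benjamini-Hochberg adjustment over all 13264 tested genes and a threshold of 0.05. The SE is the change divided by the root of the F statistic. DESeq2 1.42.0, limma-voom (limma 3.58.1), RLE or upper-quartile factors, other filters, a threshold of 0.01, a replicate block, and fits without a sample or pair were the alternatives. Deviations from group means correlated at 0.487, 0.578 and 0.276 between same-numbered samples over 13264 genes. Between samples of different numbers they correlated at -0.531 to 0.137. The numbers in the labels were therefore taken to pair the samples, though the labels do not say what they mean. This pairing was read from the same data, and deviations within a group sum to 0, so the correlations are not independent. Chi-square per gene between samples of a group was 25.3 to 61.7, so none was treated as a duplicate. Values in every sample are given for genes called without the block, the 2 of each role group with the smallest blocked adjusted p, and 6 genes set by role. The 43 genes, the 86 partner genes and the tests were chosen with earlier results of these data known. The steps were tested on simulated data.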

Additional observations from a re-analysis of the deposited data

How the results depend on the processing

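The count of the 43 genes higher in diseased samples, 2, was also 2 with RLE factors, both other filters and limma-voom. It was 6 with upper-quartile factors, 9 with DESeq2, 9 with the replicate block, 7 with DESeq2 and the block, 17 with the block and upper-quartile factors (chosen after seeing the data), 0 at a threshold of 0.01, and 0 to 3 without single samples. With the block it was 9 without replicate 1 of both groups, 3 without replicate 2 and 1 without replicate 3. The count of lower genes was 0, 1 with the block, 0 without single samples, and 0 to 1 with the block without a pair. Of the 84 partner genes, 5 were higher with upper-quartile factors, 5 with DESeq2, 10 with the block, 6 with DESeq2 and the block, 0 at 0.01, 0 to 3 without single samples, and 1 to 13 with the block without a pair. Lower partners numbered 2 with DESeq2, 2 with the block, 1 with DESeq2 and the block, 0 without single samples, and 0 to 2 with the block without a pair. The cause of these differences was not tested.

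Of the 43 fold changes, 30 kept their sign in every fit and 13 did not, none of the 13 above 0.13 in size. With upper-quartile factors the sign turned for Sec63 (0.0075), Ssr3 (0.076), Sec24c (0.050) and Mia3 (0.050). Without single samples the changes ran -0.029 to 0.26 for Sec61a1, -0.024 to 0.24 for Sec61g, -0.040 to 0.074 for Sec62, -0.12 to 0.095 for Ssr3, -0.075 to 0.18 for Spcs3, -0.034 to 0.17 for Sec24a, -0.065 to 0.0043 for Sec24c, -0.024 to 0.12 for Copb1, -0.030 to 0.10 for Arcn1, -0.010 to 0.17 for Mcfd2, -0.13 to 0.019 for Mia3 and -0.029 to 0.13 for Creb3l2. With the block and without a pair they ran -0.0074 to 0.21 for Sec61a1, -0.027 to 0.21 for Sec61g, -0.040 to 0.094 for Sec62, -0.037 to 0.014 for Ssr3, -0.046 to 0.17 for Sec24a (-0.036 without pair 2), -0.082 to 0.025 for Sec24c, -0.019 to 0.13 for Mcfd2 and -0.10 to 0.0031 for Mia3. Without single samples the difference in log2 ratio ran -0.12 to 0.10 for Sar1a to Sar1b and -0.12 to 0.076 for Kdelr2 to Kdelr1; the other 6 pairs kept their sign. The 43 genes had at least 351 counts in every sample.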
